A study of Mus musculus with 12 samples.

Results

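The respiratory chain genes described here are the protein-coding genes of the mitochondrial genome and the nuclear genes for subunits of complexes I to V, read in RNA-seq libraries of the mouse colon carcinoma line CT26, in culture and as tumors. Members were chosen by gene symbol alone: the mt-Nd, mt-Co, mt-Cytb and mt-Atp genes, the numbered Nduf subunits, Sdha to Sdhd, and the Uqcr, Cox4 to Cox8 and Atp5 families. The rule found 105 of the 55335 genes in the count tables, 13 encoded on the mitochondrial genome and 92 in the nucleus. Of the nuclear members, 35 belong to complex I, 4 to complex II, 10 to complex III, 20 to complex IV and 23 to complex V. Among these 92, 8 are annotated as pseudogenes and 4 had no count in any library.

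The study has 12 libraries in 4 groups of 3, all from the unmodified (WT) CT26 line. Cultured cells received midostaurin, a kinase inhibitor, at 1 µM for 48 h, or its solvent DMSO. Mice with subcutaneous CT26 tumors received midostaurin at 40 mg/kg for 2 weeks from day 7, or vehicle. The labels do not say whether the libraries of a group are separate cultures or animals, so p-values measure only the spread between these samples. Tumors under the skin are not in the colon, and whole tumor tissue holds host cells as well as CT26 cells. In such bulk RNA, fewer cells of a type and less RNA per cell cannot be told apart.

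The respiratory chain sits in the inner mitochondrial membrane. Complexes I and II take electrons from NADH and succinate, complex III passes them to cytochrome c, complex IV passes them to oxygen, and complex V (ATP synthase) uses the resulting proton gradient to make ATP. Complex II is encoded wholly in the nucleus, while the other complexes combine subunits of both genomes. The mitochondrial genome is transcribed as long precursors from both strands, which are cut into single mRNAs, so that the levels of these mRNAs also depend on processing and stability.

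Libraries held 34787389 to 38144039 counts in cells and 33399701 to 48109497 in tumors. Among the colon epithelium and carcinoma markers, Epcam and Krt19 were at 0 in every cell library, and the summed level of the 7 markers was 25.4 to 30.9 CPM (counts scaled to a common library size) in cells and 7.50 to 18.4 CPM in tumors. Single markers went both ways. Of the 5 tested in vehicle tumors against DMSO cells, 3 had a log2 fold change above 0 and 2 below, from -2.06 to 6.56. The cell libraries numbered 1 of both treatments stood apart from those numbered 2 and 3, as the mitochondrial shares below show. The treated tumors are numbered 1 to 3 in the labels and 2 to 4 in the count table. The column numbered 4 was taken as a midostaurin tumor by its group name and is called midostaurin tumor 4.

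Several mitochondrial mRNAs have near-identical copies in the nuclear genome, and reads from either place cannot be assigned by sequence. The copies with the most counts lie in 1 block of mouse chromosome 1 (build mm10). The first 60 bases of mt-Co2 (chrM:7013-7072, plus strand), the mRNA of subunit 2 of complex IV, and of its copy Gm28661 (chr1:24615506-24615565, minus strand) show a pair with no difference. The first 60 bases of mt-Nd3 (chrM:9459-9518, plus strand), a complex I subunit, and of Gm28438 (chr1:24613060-24613119, minus strand) show the pair that differs at 1 base of 345, in capitals: T3C, with the mt-Nd3 base first and positions counted from 1 at its 5′ end.
mt-Co2: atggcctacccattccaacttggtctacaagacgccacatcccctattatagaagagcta
Gm28661: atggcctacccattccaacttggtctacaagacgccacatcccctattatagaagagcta
mt-Nd3: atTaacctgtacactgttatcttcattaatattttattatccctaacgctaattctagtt
Gm28438: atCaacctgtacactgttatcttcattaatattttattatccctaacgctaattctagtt

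The copies' counts followed those of the members in every library. For each 100 counts of mt-Co2, Gm28661 had 99.9 to 100.0 counts, and for each 100 counts of mt-Nd3, Gm28438 had 100.7 to 102.3. The copies of mt-Co3 (Gm28437), mt-Nd4l (Gm10222) and mt-Atp6 (Gm10925) had 99.85 to 104.4 counts per 100 of the member. Shorter copies had 39.05 to 44.66 per 100 for mt-Nd4 (Gm28439) and 9.28 to 12.2 per 100 for mt-Co1 (Gm29216). Other copies, on chromosomes 2 and 13, stayed below 0.5 per 100. If such reads were shared out between both places, the values of these 7 members hold only part of the reads that match them. Their levels beside other genes are then understated. If each read was counted at both places, they are not, and the whole-number counts do not settle which was done. Except for mt-Co1 and mt-Nd4, the ratio of copy to member was nearly the same in every library. For mt-Co1 the copy's counts per 100 were higher in every tumor than in every cell library, and for mt-Nd4 they were lower. Comparisons between groups were little affected. Adding the copies' counts left the comparison of tumors with culture at 10 of 13 mRNAs called, with a median of -1.44 in place of -1.39. Neighbouring genes also overlap: mt-Atp8 with mt-Atp6, mt-Nd4l with mt-Nd4, and mt-Nd5 with mt-Nd6 on the opposite strand. The kit keeps strand, but the strand setting of the counting is not given in the sources used here, so reads of mt-Nd5 and mt-Nd6 in their overlap cannot be told apart.

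The 13 mitochondrial mRNAs took a smaller share of all counts in tumors than in culture. The summed share of the nuclear members was nearly the same in vehicle tumors as in DMSO cells. In DMSO cells the mitochondrial share was 4.60%, 5.94% and 5.93% (mean 5.49% ± 0.772, SD, n = 3), and in midostaurin cells 4.64%, 5.91% and 6.11% (5.56% ± 0.801). In vehicle tumors it was 2.14%, 2.83% and 2.87% (2.61% ± 0.407), and in midostaurin tumors 2, 3 and 4 it was 1.54%, 1.08% and 2.47% (1.69% ± 0.708). Every tumor lay below every cell library, and the 2 groups of tumors overlapped, since midostaurin tumor 4 lay above vehicle tumor 1.

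The nuclear members summed to 0.896%, 0.822% and 0.784% of counts in DMSO cells and to 0.862%, 0.794% and 0.769% in vehicle tumors. Midostaurin tumors had 0.733%, 0.754% and 0.729%, all below the vehicle tumors and below every cell library. The log2 ratio of mitochondrial to nuclear counts had group means of 2.71 in DMSO cells, 2.73 in midostaurin cells, 1.68 in vehicle tumors and 1.11 in midostaurin tumors. The ratio was thus lower by 1.03 on the log2 scale in vehicle tumors than in DMSO cells, without overlap. Between the tumor groups the log2 difference was -0.57, with overlap, and -0.27 without midostaurin tumor 3. An exact permutation test of 3 against 3 libraries cannot go below p = 0.1, so these ratios are given as descriptions.

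**Figure D1:**
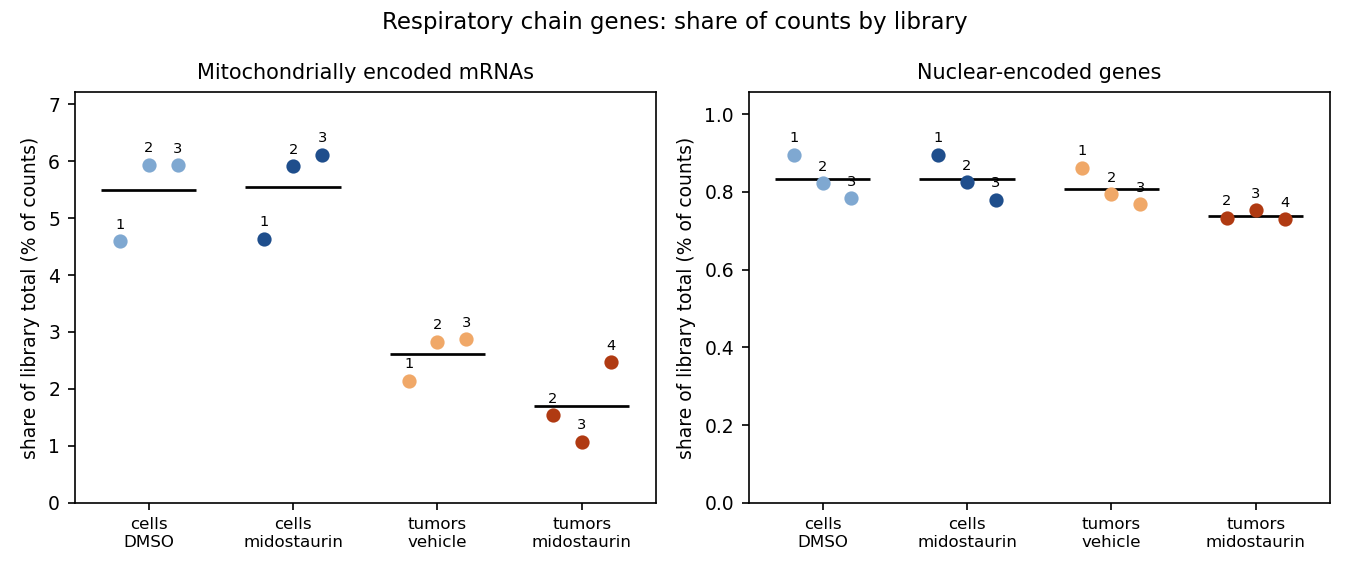
Share of all counts (%) taken by the 13 mitochondrial mRNAs (left) and by the nuclear members (right) in each library; horizontal lines are group means of 3 libraries and points are single libraries labelled by their number. Tumors sit at 1.08% to 2.87% in the left panel against 4.60% to 6.11% in cells, and midostaurin tumor 3 is the lowest.

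The plot of shares shows that the cell libraries numbered 1 had the lowest mitochondrial share and the highest nuclear share of their groups, 4.60% and 0.896% with DMSO and 4.64% and 0.896% with midostaurin. Compared within the number, the treatments differed by less than library 1 differed from libraries 2 and 3. DMSO libraries 2 and 3 had closer mitochondrial shares, at 5.94% and 5.93%, than the pair numbered 3, at 5.93% and 6.11%.

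For vehicle tumors against DMSO cells, edgeR's quasi-likelihood test on all 12 libraries called 10 of the 13 mitochondrial mRNAs at an adjusted p under 0.05 (Benjamini-Hochberg over 16965 genes), all 10 lower in tumors. Among all genes tested, 19.7% were called lower and 44.2% in either direction. That fit took 1 spread per gene over cells and tumors together, although tumors varied more than cells. The interaction below comes from the same fit. Cells and tumors come from separate tables and experiments, so growth as a tumor and any other difference between the experiments cannot be told apart. All 7 mRNAs of complex I subunits fell, against 3 of the 6 others, and the median log2 fold change was -2.18 for the 7 and -0.81 for the 6. The difference between these 2 sets was not tested. The median over the 13 was -1.39, beside 0.04 over all genes. Without overlap between the groups were 11 of the 13, where 24.7% of all genes were lower without overlap.

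Among the complex I mRNAs, mt-Nd1 (chrM:2751-3707), a core membrane subunit, had 5223, 5729 and 5544 CPM in DMSO cells and 1146, 1071 and 1422 CPM in vehicle tumors. It fell by 2.18 ± 0.47 on the log2 scale (SE, edgeR adjusted p = 0.00362), and its mean was 4.53-fold lower, with every tumor far below every culture. Another membrane subunit, mt-Nd5 (chrM:11742-13565), read 3321, 4749 and 4850 CPM in DMSO cells against 625, 586.6 and 1164 CPM in vehicle tumors, a fall of 2.44 ± 0.59 (edgeR adjusted p = 0.00691). For mt-Nd6 (chrM:13552-14070, minus strand), the member transcribed from the other strand, the values were 152.5, 215.4 and 235.5 CPM in DMSO cells and 31.5, 30.1 and 57.2 CPM in vehicle tumors. Its log2 fold change was -2.34 ± 0.61 (edgeR adjusted p = 0.010), close to that of the 6 complex I genes on the plus strand, which ranged from -2.55 for mt-Nd3 to -1.39 for mt-Nd4.

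mt-Nd3 had 210.1, 206.9 and 208.0 CPM in DMSO cells and 27.5, 25.8 and 53.6 CPM in vehicle tumors, where its mean was 5.85-fold lower (edgeR adjusted p = 0.00464). The remaining complex I mRNAs mt-Nd2, mt-Nd4l and mt-Nd4 also fell, with log2 fold changes of -1.91, -1.80 and -1.39 and edgeR adjusted p-values of 0.00408, 0.00331 and 0.0134. In all 7, vehicle tumor 3 was the highest vehicle tumor.

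mt-Cytb (chrM:14145-15288), the catalytic cytochrome b of complex III and its only mitochondrial subunit, had 6869, 8357 and 8278 CPM in DMSO cells and 3587, 4873 and 4679 CPM in vehicle tumors. It fell by 0.84 ± 0.20 on the log2 scale (edgeR adjusted p = 0.00567), without overlap. Both mitochondrial subunits of ATP synthase fell too, mt-Atp8 by 1.11 ± 0.28 (edgeR adjusted p = 0.00911) and mt-Atp6, part of the proton channel, by 0.93 ± 0.28 (edgeR adjusted p = 0.0209). The call of mt-Atp6 was lost without DMSO library 2 or 3 or vehicle tumor 1 (log2 fold change -0.88 to -0.79), and that of mt-Nd4 without vehicle tumor 1 (-1.25).

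The 3 catalytic core subunits of complex IV did not pass the test. mt-Co1 (chrM:5328-6872), which holds the oxygen-binding site, had 11920, 17860 and 18540 CPM in DMSO cells and 8800, 13360 and 11080 CPM in vehicle tumors, with a log2 fold change of -0.54 ± 0.27 (edgeR adjusted p = 0.129). Its groups overlapped, as vehicle tumor 2 lay above DMSO cell library 1. mt-Co2 had a log2 fold change of -0.76 ± 0.35 (edgeR adjusted p = 0.106) without overlap, and mt-Co3 of -0.78 ± 0.41 (edgeR adjusted p = 0.145) with overlap. With only the 2 groups compared in the fit, mt-Co2 did pass (-0.76, edgeR adjusted p = 0.0242). It also passed without midostaurin tumor 3 (-0.75, edgeR adjusted p = 0.0345) or 4 (-0.75, edgeR adjusted p = 0.0384).

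**Figure D2:**
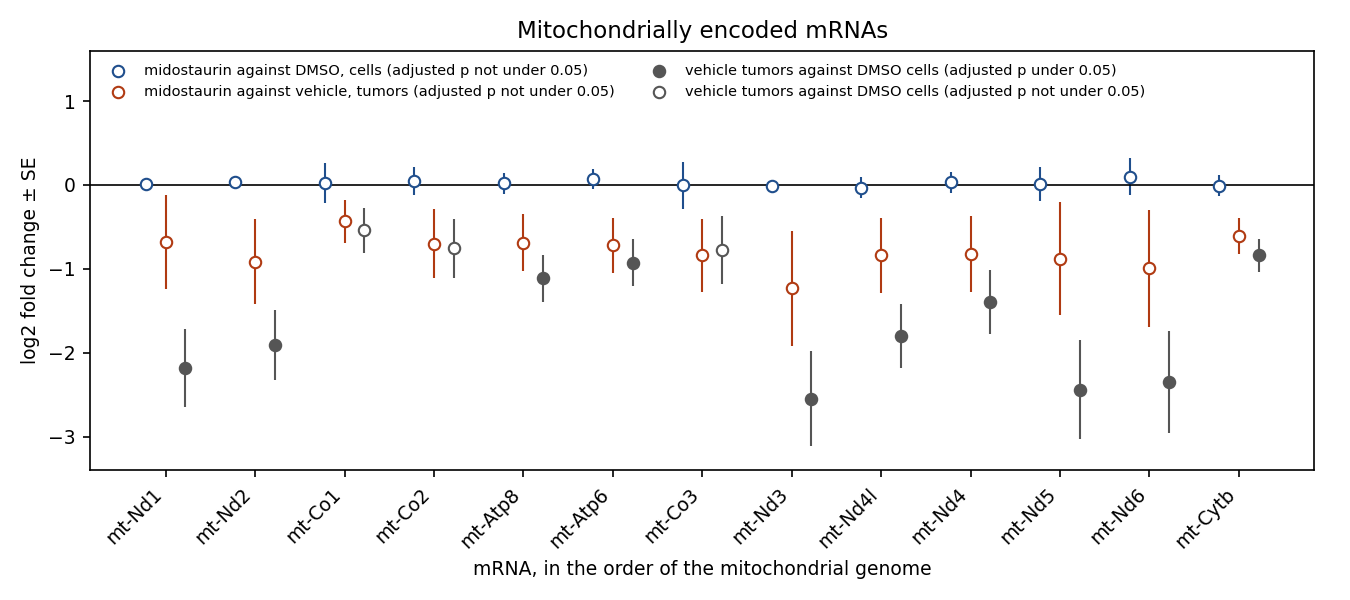
Fitted log2 fold change with its standard error for the 13 mitochondrial mRNAs in genome order, for midostaurin against DMSO cells, midostaurin against vehicle tumors, and vehicle tumors against DMSO cells; filled points have an edgeR adjusted p under 0.05 and open points do not. In tumors against culture the mt-Nd genes lie between -2.55 and -1.39 and the other genes between -1.11 and -0.54.

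The plot of fold changes in genome order shows no run along the genome: mt-Nd1 and mt-Nd2 precede mt-Co1, and mt-Nd3 to mt-Nd6 follow mt-Co3, with the larger decreases on both sides of the complex IV and V genes. Levels of different genes were compared per kilobase of annotated exon, with the counts of the nuclear copies added. This sum holds only if reads were shared out between member and copy. In DMSO cells mt-Atp6 was highest (12940 CPM per kilobase), followed by mt-Co1 (11410), mt-Co2 (9156) and mt-Co3 (7184), with mt-Nd1 sixth (5746) and mt-Nd6 lowest (387.5). In vehicle tumors mt-Co1 was highest (8015 CPM per kilobase), followed by mt-Atp6 (6783), mt-Co2 (5423) and mt-Co3 (4189), with mt-Nd1 eighth (1267) and mt-Nd6 lowest (76.3). mt-Atp6 lay above mt-Co1 in each of the 3 DMSO libraries and below it in each of the 3 vehicle tumors. Without the copies' counts mt-Co1 was highest in both groups, at 10420 and 7170 CPM per kilobase, and mt-Cytb second, at 6849 and 3828.

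Counts set against mt-Co1 of the same library do not depend on how libraries are scaled. Per 100 counts of mt-Co1, mt-Nd1 had 43.8, 32.1 and 29.9 counts in DMSO cells, 13.0, 8.02 and 12.8 in vehicle tumors and 9.00, 3.76 and 12.4 in midostaurin tumors 2, 3 and 4. For mt-Nd5 the ratio was 27.9, 26.6 and 26.2 in DMSO cells, 7.10, 4.39 and 10.5 in vehicle tumors and 4.54, 1.79 and 7.64 in midostaurin tumors. mt-Cytb differed less, at 57.6, 46.8 and 44.7 in DMSO cells against 40.8, 36.5 and 42.2 in vehicle tumors and 33.7, 37.7 and 34.4 in midostaurin tumors. All 3 ratios were lower in every vehicle tumor than in every DMSO cell library. The log2 ratio of summed mt-Nd counts to the other mitochondrial mRNAs was -0.77, -0.98 and -0.99 in DMSO cells and -2.08, -2.58 and -1.89 in vehicle tumors.

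**Figure D3:**
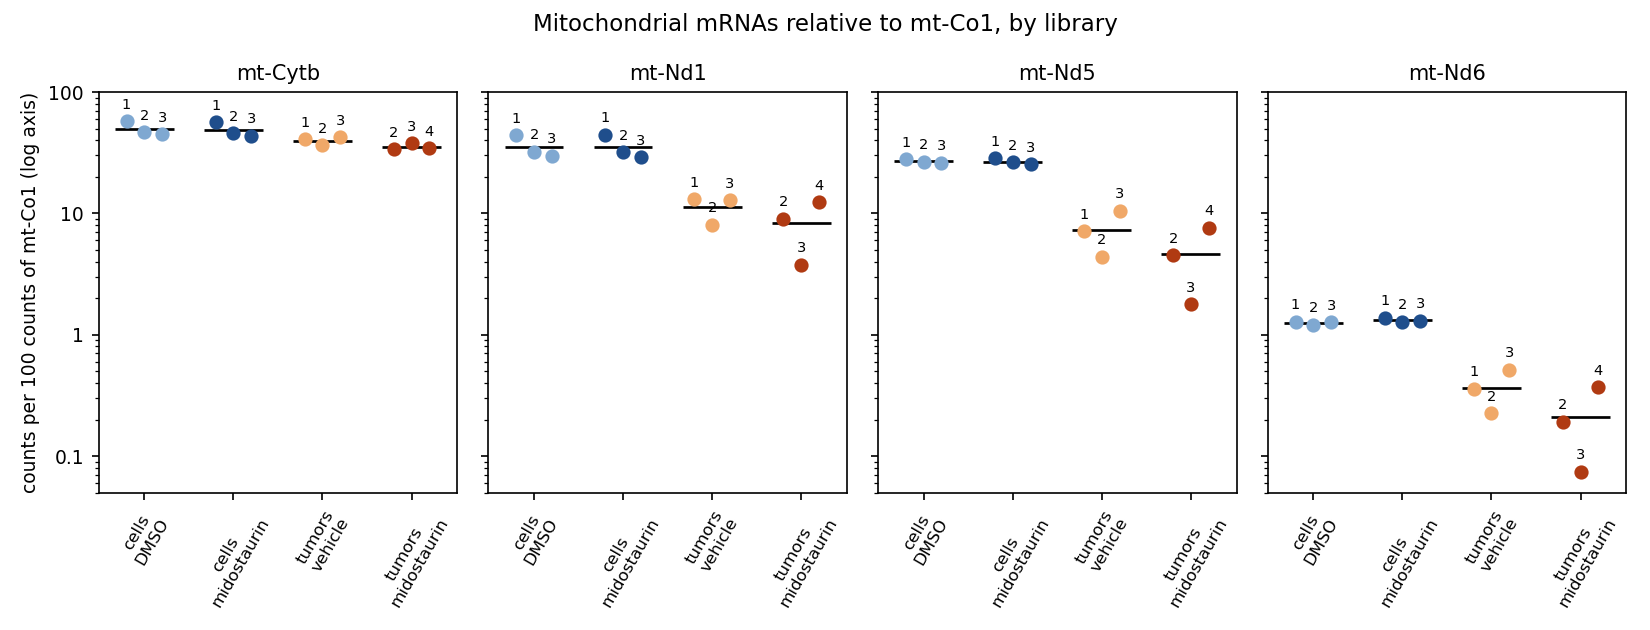
Counts of mt-Cytb, mt-Nd1, mt-Nd5 and mt-Nd6 per 100 counts of mt-Co1 in each library, on a log axis shared by the panels; points are libraries in the 4 groups. The mt-Nd ratios are several times lower in tumors (mt-Nd5 1.79 to 10.5) than in cells (25.3 to 28.3), and mt-Cytb spans 33.7 to 57.6 over all libraries.

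In the plot of ratios to mt-Co1, midostaurin tumor 3 was the lowest library for mt-Nd1, mt-Nd5 and mt-Nd6, at 3.76, 1.79 and 0.0744 counts per 100, and not for mt-Cytb. DMSO and midostaurin cells overlapped in the ratios of mt-Nd1, mt-Nd5 and mt-Cytb, but not in that of mt-Nd6, at 1.279, 1.206 and 1.27 counts per 100 with DMSO and 1.377, 1.281 and 1.307 with midostaurin.

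The same contrast in the treated groups, midostaurin tumors against midostaurin cells, had 13 of 13 mitochondrial mRNAs called lower with a median log2 fold change of -2.25, where 19.1% of all genes were called lower and 43.3% in either direction. These are the other 6 libraries, but of the same 2 experiments.

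In midostaurin against vehicle tumors no mitochondrial mRNA passed edgeR's quasi-likelihood test (0 of 13 called, 1 with an unadjusted p under 0.05), in a comparison that called 0.0435% of 16094 genes and had 19.9% of them at an unadjusted p under 0.05. All 13 fitted log2 fold changes were below 0, where 52.1% of all genes were, and the median was -0.82 beside -0.01 over all genes. For every one of the 13 the groups overlapped. DESeq2 called 1 of the 13, mt-Cytb (adjusted p = 0.0402, range over the alternatives 0.0402 to 0.360), and 8.99% of all genes.

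mt-Cytb had 2569, 2252 and 3740 CPM in midostaurin tumors 2, 3 and 4, against 3587, 4873 and 4679 CPM with vehicle (log2 fold change -0.61 ± 0.22, edgeR adjusted p = 0.193). mt-Nd1 had 686.5, 224.7 and 1345 CPM with midostaurin, against 1146, 1071 and 1422 CPM with vehicle (-0.68 ± 0.56, edgeR adjusted p = 0.538). In both, midostaurin tumor 3 was lowest and tumor 4 lay within the range of the vehicle tumors. The lowest fitted value among the 13 was that of mt-Nd3, at 11.0, 3.82 and 30.2 CPM in midostaurin tumors 2, 3 and 4 (log2 fold change -1.23 ± 0.69, edgeR adjusted p = 0.363). The value nearest 0 was that of mt-Co1, at 7627, 5969 and 10880 CPM (-0.43 ± 0.25, edgeR adjusted p = 0.384). Tumor 3 was the lowest library for all 13.

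The size of these differences rested on single tumors. Without midostaurin tumor 3 the median of the 13 was -0.45, and without midostaurin tumor 4 it was -1.39. Tumor 3 also stood apart in its markers of neutrophils, short-lived cells of the innate immune system, whose 7 genes summed to 686.1 CPM there and to 38.7 and 20.6 CPM in midostaurin tumors 2 and 4, 30.1, 25.9 and 15.0 CPM in vehicle tumors and 0.101 to 2.73 CPM in cells. The 10 skeletal muscle markers summed to 61.1 CPM in tumor 3, against 2.29 and 3.08 CPM in the other midostaurin tumors and 41.5, 4.46 and 8.26 CPM in vehicle tumors. The 9 macrophage markers summed to 345.8, 827.2 and 721.4 CPM in midostaurin tumors 2, 3 and 4 and to 1339, 944.5 and 1231 CPM with vehicle. All 9 had a fitted fold change below 0, as did 52.1% of all genes, and edgeR called 0. Trem2 (-0.89, DESeq2 adjusted p = 0.000557) and Fcgr1 (-0.65, DESeq2 adjusted p = 0.0256) passed by DESeq2, which called 8.99% of all genes. Among the RNA quality markers, the nuclear RNA Neat1 had 408.6, 722.2 and 442.1 CPM in midostaurin tumors 2, 3 and 4 and 204.3, 350.8 and 241.3 CPM with vehicle (log2 fold change 0.99, edgeR adjusted p = 0.131, DESeq2 0.00322, range over the alternatives 0.00322 to 0.517). The stress-induced Egr1 had 455.9, 561.7 and 605.3 CPM with midostaurin and 284.9, 311.6 and 416.5 CPM with vehicle (0.68, edgeR adjusted p = 0.117, DESeq2 0.00254, range 0.00254 to 0.442). Neither gene overlapped between the groups, and Neat1 was highest in tumor 3. Of the 7 markers, 3 were above 0 and 4 below, and their sum was 1025 to 1329 CPM with vehicle and 1309 to 1832 CPM with midostaurin. The part of these cell types and of RNA quality in the mitochondrial values was not tested.

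The markers also set tumors apart from culture. Macrophage markers summed to 5.18 to 26.4 CPM in cells, with Adgre1 and the 3 C1q genes at 0 in every DMSO library. All 9 macrophage markers rose in vehicle tumors, where 24.5% of all genes were called higher. Fibroblast markers summed to 109 to 342 CPM in cells and to 2415, 570.4 and 402 CPM in vehicle tumors, with 3 of 7 called higher. All 6 T cell markers and 5 of 6 endothelial markers rose as well, as did 4 of 5 tested pericyte and smooth muscle markers and 3 of 5 tested neutrophil markers. Their part in the fall of the mitochondrial mRNAs was not tested.

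In cultured CT26 cells no mitochondrial mRNA and no nuclear member passed the test for midostaurin against DMSO. edgeR called 0 of 13 and 0 of the 78 tested nuclear members, none of them had an unadjusted p under 0.05 in this fit without pairing, and DESeq2 called 0 members. Of all 14538 genes tested, edgeR called 0.0%, 75 genes (0.516%) had an unadjusted p under 0.05, and DESeq2 called 0.0138%. The log2 fold changes ran from -0.03 to 0.10 for the mitochondrial mRNAs (median 0.02) and from -0.19 to 0.16 for the nuclear members (median 0.01). With the shared number of the cell libraries taken as a block, edgeR again called 0 members, and 0.055% of all genes. An unadjusted p under 0.05 then came for 6 of the 13 mitochondrial mRNAs, 3 of the 78 nuclear members and 4.33% of all genes. The smallest adjusted p-values in that fit were 0.0588 for mt-Nd2 (log2 fold change 0.04 without the block) and 0.0670 for mt-Atp6 (0.07). With midostaurin mt-Nd2, mt-Atp6, mt-Co2 and mt-Nd6 were higher in 3 of 3 pairs. mt-Nd1, for example, had 5291, 5680 and 5631 CPM with midostaurin and 5223, 5729 and 5544 CPM with DMSO, in each case lowest in library 1. Among the nuclear members 3 were higher and 1 lower without overlap, where 1.31% and 1.15% of all genes were.

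The response in tumors minus that in cells, tested as an interaction over all 12 libraries, passed the threshold for 0 of 13 mitochondrial mRNAs and 0 of 80 nuclear members by edgeR (adjusted p for the mitochondrial mRNAs 0.813 to 0.946), with 0.00589% of all genes called. With an unadjusted p under 0.05 were 1 and 9 of them, and 6.08% of all genes. All 13 mitochondrial differences were below 0 (median -0.81), as were 67 of the 80 nuclear ones (median -0.14) and 52.0% of all genes. DESeq2 called 0 mitochondrial and 1 nuclear member, Ndufa4 (adjusted p = 0.0378), and 0.584% of all genes.

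Of the 92 nuclear members, 80 passed the filter on low counts in the comparison of tumors with culture. The 12 left out were 7 pseudogenes, a second, empty Atp5o entry and the tissue-restricted Cox6b2, Cox7b2, Cox8b and Cox8c. In vehicle tumors 12 of the 80 rose and 8 fell against DMSO cells, which is 25.0% called against 44.2% of all genes (24.5% higher and 19.7% lower). Their median log2 fold change was 0.09, beside 0.04 over all genes. Without overlap 23 were higher and 10 lower, where 30.1% and 24.7% of all genes were. The split depended on scaling: 8 rose and 9 fell with total counts, and 15 rose and 5 fell with DESeq2's size factors in edgeR. The 20 calls became 11 with only the 2 groups compared in the fit. They became 10 without DMSO library 2, 12 without DMSO library 3 and 13 without vehicle tumor 2.

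Complex I, with 35 of the 80 tested members, held 8 of the 12 that rose. Ndufb11, a membrane-arm subunit, had 32.4, 35.5 and 34.6 CPM in DMSO cells and 50.1, 61.8 and 60.5 CPM in vehicle tumors (log2 fold change 0.75 ± 0.10, edgeR adjusted p = 0.000307). All tumors lay above all cell libraries. The iron-sulfur subunit Ndufs7 had 43.4, 36.9 and 34.2 CPM in DMSO cells and 55.1, 56.1 and 55.9 CPM in vehicle tumors (0.54 ± 0.12, edgeR adjusted p = 0.00454). Ndufa5, an accessory subunit, rose from 14.5, 11.5 and 10.8 CPM to 20.5, 18.9 and 16.0 CPM (0.59 ± 0.15, edgeR adjusted p = 0.0108). Also higher were Ndufa2 (0.50), Ndufs4 (0.47), Ndufb7 (0.39), Ndufa9 (0.36) and Ndufb5 (0.28), and Ndufs1, the subunit with the most iron-sulfur clusters, fell by 0.26. The 9 calls among the 35 nuclear complex I members are 25.7% of them, against 44.2% of all genes, and the share that rose was near the 24.5% of all genes. All 7 mitochondrial members of complex I fell.

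In tumors against culture, none of the 4 complex II genes passed the test. The same held for the 8 tested nuclear complex III genes of the naming rule. Log2 fold changes ran from -0.15 for Uqcrfs1, the Rieske iron-sulfur protein, to 0.20 for Sdhc, a membrane anchor. Cyc1, a nuclear complex III subunit outside that rule, fell. Sdha, the flavoprotein of complex II, had 198.1, 196.0 and 183.2 CPM in DMSO cells and 178.2, 156.9 and 190.5 CPM in vehicle tumors (-0.14, edgeR adjusted p = 0.214). In the same comparison mt-Cytb, the mitochondrial partner of the nuclear complex III subunits, fell.

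In complex IV, Ndufa4 fell most clearly. It was first named as a complex I subunit and is now placed in complex IV. It had 138.5, 129.0 and 121.6 CPM in DMSO cells, 139.3, 132.0 and 117.1 CPM in midostaurin cells, 63.0, 53.6 and 49.0 CPM in vehicle tumors and 35.0, 34.3 and 38.4 CPM in midostaurin tumors 2, 3 and 4. The vehicle tumors lay below all cells and the midostaurin tumors below all vehicle tumors. The log2 fold change of vehicle tumors against DMSO cells was -1.23 ± 0.11 (edgeR adjusted p = 2.43e-05), a 2.35-fold lower mean. Cox6a1, the broadly expressed isoform of subunit VIa, fell by 0.31 ± 0.07, from 223.5, 221.2 and 217.9 CPM to 182.0, 189.4 and 163.0 CPM (edgeR adjusted p = 0.00687). Cox8a (-0.32) and Cox6c (-0.25) also fell, though the call of Cox8a was lost on leaving out any 1 of the DMSO libraries or vehicle tumor 2 or 3 (-0.34 to -0.26). Cox4i1, the common isoform of subunit IV, had 291.3, 296.7 and 289.8 CPM in DMSO cells and 287.6, 285.4 and 277.3 CPM in vehicle tumors (-0.05, edgeR adjusted p = 0.620).

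In complex V, Atp5e, the epsilon subunit of the catalytic part, rose from 42.3, 46.3 and 47.1 CPM to 67.5, 59.9 and 52.5 CPM (log2 fold change 0.41 ± 0.10, edgeR adjusted p = 0.00641). Atp5g2 (0.28), 1 of 3 genes for the membrane ring subunit, and Atp5o (0.24), part of the stalk, also rose. A second ring gene, Atp5g3 (-0.25), and the stalk subunits Atp5f1 (-0.29) and Atp5j (-0.23) fell. The calls of Atp5o and Atp5f1 were each lost without DMSO library 2 or 3. That of Atp5o was also lost without vehicle tumor 1 (0.19), and that of Atp5f1 without vehicle tumor 2 or 3 (-0.30 and -0.22). In the treated groups Atp5e had a log2 fold change of 0.06 and did not pass the test. The increase of Atp5o was not seen in the treated groups, where its log2 fold change was -0.10 (edgeR adjusted p = 0.284).

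**Figure D4:**
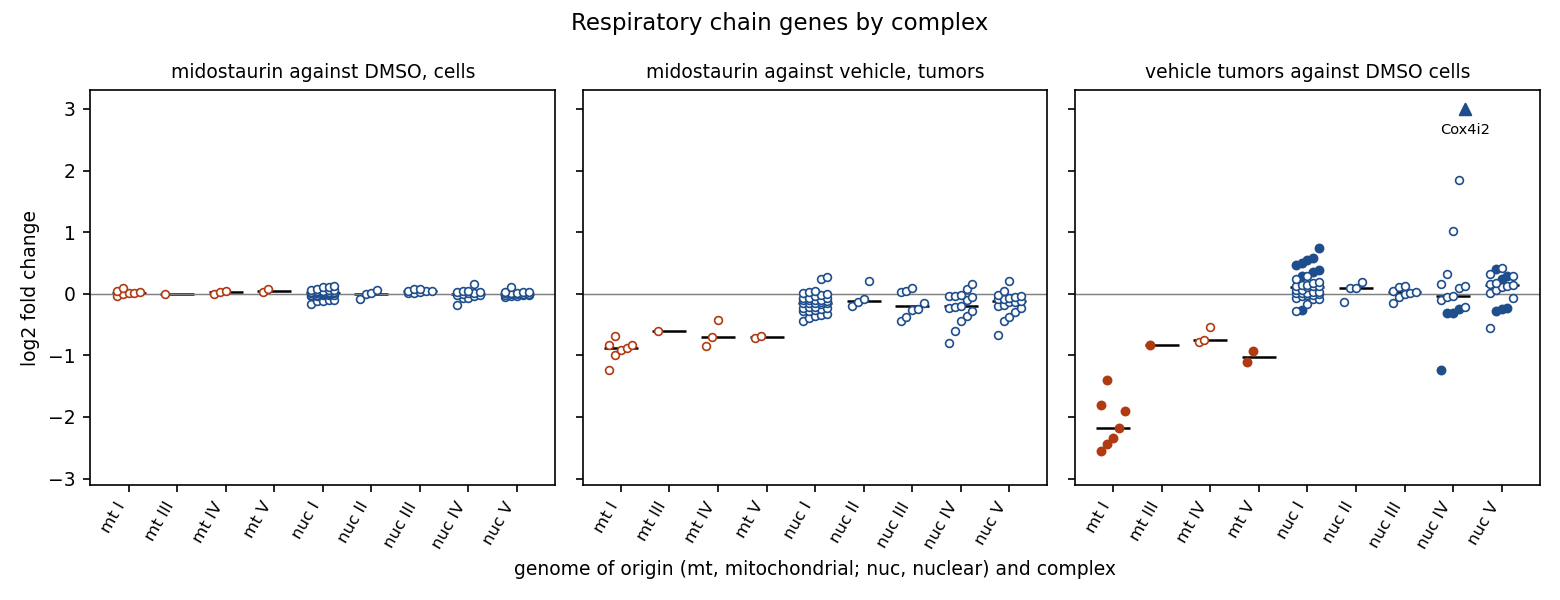
Fitted log2 fold change of every tested member, by complex and by genome of origin, in the 3 comparisons; each point is a gene, filled where the edgeR adjusted p was under 0.05, and black bars are medians. Cox4i2 in tumors against culture is drawn as a triangle at the axis limit of 3. Nuclear members cluster near 0, and mitochondrial members of complex I lie lowest in tumors against culture, with a median of -2.18.

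The plot by complex shows that for midostaurin against vehicle tumors the nuclear members lay mostly just below 0 in each complex. edgeR called 0 of 80, and 0.0435% of all genes. An unadjusted p under 0.05 was found for 23 of the 80 and for 19.9% of all genes. DESeq2 called 8, all lower, where it called 3.56% of all genes lower. Below 0 were 67 of the 80 (52.1% of all genes), with a median log2 fold change of -0.13 beside -0.01 over all genes. In the midostaurin tumors 31 of the 80 were lower without overlap and 3 higher, where 14.1% and 13.1% of all genes were. By complex, the values were below 0 for 30 of 35 members of complex I (median -0.14), 3 of 4 of complex II (-0.11), 5 of 8 of complex III (-0.20), 13 of 15 of complex IV (-0.19) and 16 of 18 of complex V (-0.12).

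The smallest edgeR adjusted p-value, 0.0841, was shared by 3 nuclear members of different complexes. Ndufa4, with the values given above, had a log2 fold change of -0.61 ± 0.11 (DESeq2 adjusted p = 0.000417, range over the alternatives 0.000417 to 0.442). Uqcrq, a small complex III subunit, had 67.7, 73.6 and 64.5 CPM in vehicle tumors and 48.2, 50.8 and 51.4 CPM in midostaurin tumors (-0.44 ± 0.08). Atp5g1, the first ring gene of complex V, had 69.4, 63.4 and 65.8 CPM with vehicle and 49.5, 49.4 and 46.5 CPM with midostaurin (-0.44 ± 0.07). In all 3 every midostaurin tumor lay below every vehicle tumor. The other members DESeq2 called were Ndufs8 (-0.45), Cox5b (-0.36), Atp5o (-0.29), Uqcrc1 (-0.27) and Ndufa10 (-0.26), for which edgeR's adjusted p-values were 0.115 to 0.144.

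Ndufs8, an iron-sulfur subunit of complex I, had 51.0, 43.2 and 38.4 CPM with vehicle and 33.2, 31.7 and 31.6 CPM with midostaurin. Cox5b, a matrix-facing subunit of complex IV, had 110.5, 108.6 and 91.9 CPM with vehicle and 77.1, 85.6 and 77.8 CPM with midostaurin. Sdha was among the few above 0 (0.20, edgeR adjusted p = 0.284), at 178.2, 156.9 and 190.5 CPM with vehicle and 194.5, 201.3 and 205.9 CPM with midostaurin, without overlap. Unlike the mitochondrial mRNAs, the nuclear members Ndufs8, Cox5b, Sdha, Uqcrq and Atp5g1 were not lowest in midostaurin tumor 3. Ndufa4 was lowest there, at 34.3 CPM against 35.0 and 38.4 CPM in midostaurin tumors 2 and 4. For Ndufa4, Uqcrq and Atp5g1 the 3 treated tumors lay close together.

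Complex IV has subunit isoforms restricted to certain tissues, and these were low here. Cox4i2, the isoform of subunit IV known from lung and from cells at low oxygen, had no count in the 6 cell libraries and 1.42, 1.11 and 0.601 CPM in vehicle tumors (56, 41 and 26 counts) and 0.458, 1.03 and 0.807 CPM in midostaurin tumors. Against a floor of 3 counts per library, its mean in vehicle tumors was at least 12.5-fold higher than in DMSO cells. Cox4i2 in midostaurin against vehicle tumors overlapped between the groups.

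Cox6a2, the isoform of heart and skeletal muscle, had 1.87, 0.0815 and 0.427 CPM in DMSO cells and 0.862, 4.30 and 3.49 CPM in vehicle tumors (log2 fold change 1.85 ± 1.25, edgeR adjusted p = 0.255). Cox7a1, another muscle isoform, had 0.430, 0.897 and 1.03 CPM in DMSO cells and 1.65, 2.03 and 1.11 CPM in vehicle tumors (1.02 ± 0.40, edgeR adjusted p = 0.0569). It passed the test without vehicle tumor 3 (1.23) and, with all libraries, by DESeq2 (adjusted p = 0.0371) and limma-voom (adjusted p = 0.0443). Cox7b2 and Cox8c were at 0 in all 12 libraries, and Cox6b2, Cox8b and the pseudogene Cox6c2 had at most 8 counts in any library.

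Promoters of nuclear members are known for binding sites of NRF1, the nuclear respiratory factor. In the 300 bases around the RefSeq start (GRCm38.p6), the NRF1 motif, GCGCA, any base and GCGC, searched on both strands, was in 17 of 66 nuclear members with a promoter entry (25.8%), against 1402 of 27025 genes (5.19%). The YY1 motif AAGATGGCG was in 7 (10.6%, against 1.64%) and the ETS motif CCGGAAGTG in 2 (3.0%, against 2.25%). No motif overlapped with another kind in the windows printed here. The first window holds 2 NRF1 motifs, in capitals, and belongs to Cox6a1 (chr5:115348989-115349138, minus strand), which fell in tumors against culture. The second holds 1 and belongs to the complex I subunit Ndufs5 (chr4:123718217-123718366, minus strand), chosen after its values were seen. Both windows run from 180 to 31 bases before the start.
Cox6a1: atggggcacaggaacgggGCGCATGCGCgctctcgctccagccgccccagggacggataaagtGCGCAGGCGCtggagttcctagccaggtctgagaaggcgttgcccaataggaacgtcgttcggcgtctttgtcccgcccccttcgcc
Ndufs5: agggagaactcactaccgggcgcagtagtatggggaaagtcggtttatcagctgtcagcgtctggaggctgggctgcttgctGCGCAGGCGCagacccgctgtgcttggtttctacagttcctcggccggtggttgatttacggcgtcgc

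The motifs in Cox6a1 begin 162 and 117 bases before the start and that in Ndufs5 begins 98 bases before it. Ndufs5 had a log2 fold change of -0.02 in tumors against culture (edgeR adjusted p = 0.943), with 27.8, 19.7 and 18.8 CPM in DMSO cells and 22.4, 22.1 and 21.0 CPM in vehicle tumors. A match describes the letters only. Nrf1 itself had a log2 fold change of 0.16 (edgeR adjusted p = 0.186) and Gabpa, an ETS factor for respiratory genes, fell by 0.37 (edgeR adjusted p = 0.0101).

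Among 13 regulators of respiratory genes, 1 rose and 4 fell in vehicle tumors against DMSO cells. Of all genes, 24.5% were called higher and 19.7% lower in that comparison. Ppargc1a, the coactivator PGC-1α that drives mitochondrial biogenesis, had 11.5, 48.4 and 35.2 CPM in DMSO cells and 0.507, 0.649 and 1.04 CPM in vehicle tumors. It fell by 5.42 ± 0.68 on the log2 scale (edgeR adjusted p = 0.000158), the tumors all far below the cells. In midostaurin tumors it had 3.51, 1.62 and 2.78 CPM, above every vehicle tumor (1.85 ± 0.42, edgeR adjusted p = 0.102, DESeq2 0.00338, range over the alternatives 0.00338 to 0.518). Hif1a, the oxygen-regulated transcription factor, fell by 1.15 (edgeR adjusted p = 0.00595). Myc, a transcription factor of cell growth, had a log2 fold change of 0.29 (edgeR adjusted p = 0.677).

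Of 26 genes for transcription and processing of mitochondrial DNA, 3 rose and 4 fell, where 24.5% of all genes were called higher and 19.7% lower. Tfam, which packages mitochondrial DNA and starts its transcription, had 62.9, 41.0 and 40.3 CPM in DMSO cells and 44.0, 39.4 and 38.6 CPM in vehicle tumors (-0.24, edgeR adjusted p = 0.411). The mitochondrial RNA polymerase Polrmt had a log2 fold change of -0.03 (edgeR adjusted p = 0.816). Fastkd5, which takes part in processing mitochondrial mRNAs, fell from 24.8, 24.2 and 25.8 CPM to 16.0, 15.3 and 16.2 CPM (-0.66, edgeR adjusted p = 0.000563). Lrpprc, which stabilises mitochondrial mRNAs, fell by 0.67, and Polg, the polymerase that copies mitochondrial DNA, rose by 0.47 (edgeR adjusted p = 0.00142).

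The mitochondrial 16S ribosomal RNA mt-Rnr2 had 531.7, 696.9 and 788 CPM in DMSO cells and 71.1, 62.5 and 65.5 CPM in vehicle tumors, a log2 fold change of -3.34 ± 0.26 (edgeR adjusted p = 1.18e-05). It belongs to a list of 7 RNA quality markers, of which 3 rose and 3 fell, where 24.5% of all genes were called higher and 19.7% lower. The summed level of the 7 was 1201 to 1766 CPM in cells and 1025 to 1832 CPM in tumors. The part of RNA quality in the mitochondrial values was not tested.

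Assembly factors were called in vehicle tumors against DMSO cells as follows, where 24.5% of all genes were called higher and 19.7% lower. For complex I, 2 of 16 rose and 2 fell, with Ndufaf3 (-0.81, edgeR adjusted p = 0.0171) and Tmem126b (-0.79, edgeR adjusted p = 0.00143) the lower ones. The call of Ndufaf3 was lost without DMSO library 2 or 3 or vehicle tumor 3 (-0.78 to -0.61). Of 10 factors for complexes II and III, 2 fell, Sdhaf1 and Sdhaf2 (-0.63 and -0.41). Of 22 factors for complex IV, 2 fell, Cox14 (-0.31) and Cox19 (-0.48). Of 5 for complex V, Atpaf1 fell by 0.74 and Atpif1, the inhibitor of the ATP synthase running backwards, rose by 0.33. Without vehicle tumor 1 Cox19 (-0.36) did not pass the test, nor did Atpif1 without DMSO library 2 (0.30) or vehicle tumor 3 (0.29).

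Of the 7 tested carriers and subunits outside the naming rule, 2 rose and 3 fell, where 24.5% of all genes were called higher and 19.7% lower. Ndufa4l2, the paralog of Ndufa4 known as a target of hypoxia signalling, had 0.101, 0.163 and 0 CPM in DMSO cells and 58.0, 74.9 and 9.37 CPM in vehicle tumors (log2 fold change 9.00 ± 0.96, edgeR adjusted p = 6.15e-05). In midostaurin tumors 2, 3 and 4 it had 7.02, 7.79 and 11.2 CPM (-2.44 ± 0.68, edgeR adjusted p = 0.131, DESeq2 0.0285, range over the alternatives 0.0285 to 0.559). Vehicle tumor 3 lay among the midostaurin tumors, so these groups overlapped. Higd1a, a hypoxia-induced partner of complex IV, rose from 22.0, 15.9 and 15.3 CPM to 42.8, 69.9 and 22.9 CPM (1.35, edgeR adjusted p = 0.0137). Its call was lost without DMSO library 2 or 3 or vehicle tumor 2 (0.89 to 1.28). Cyc1, Ndufab1 and Usmg5 fell.

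**Figure D5:**
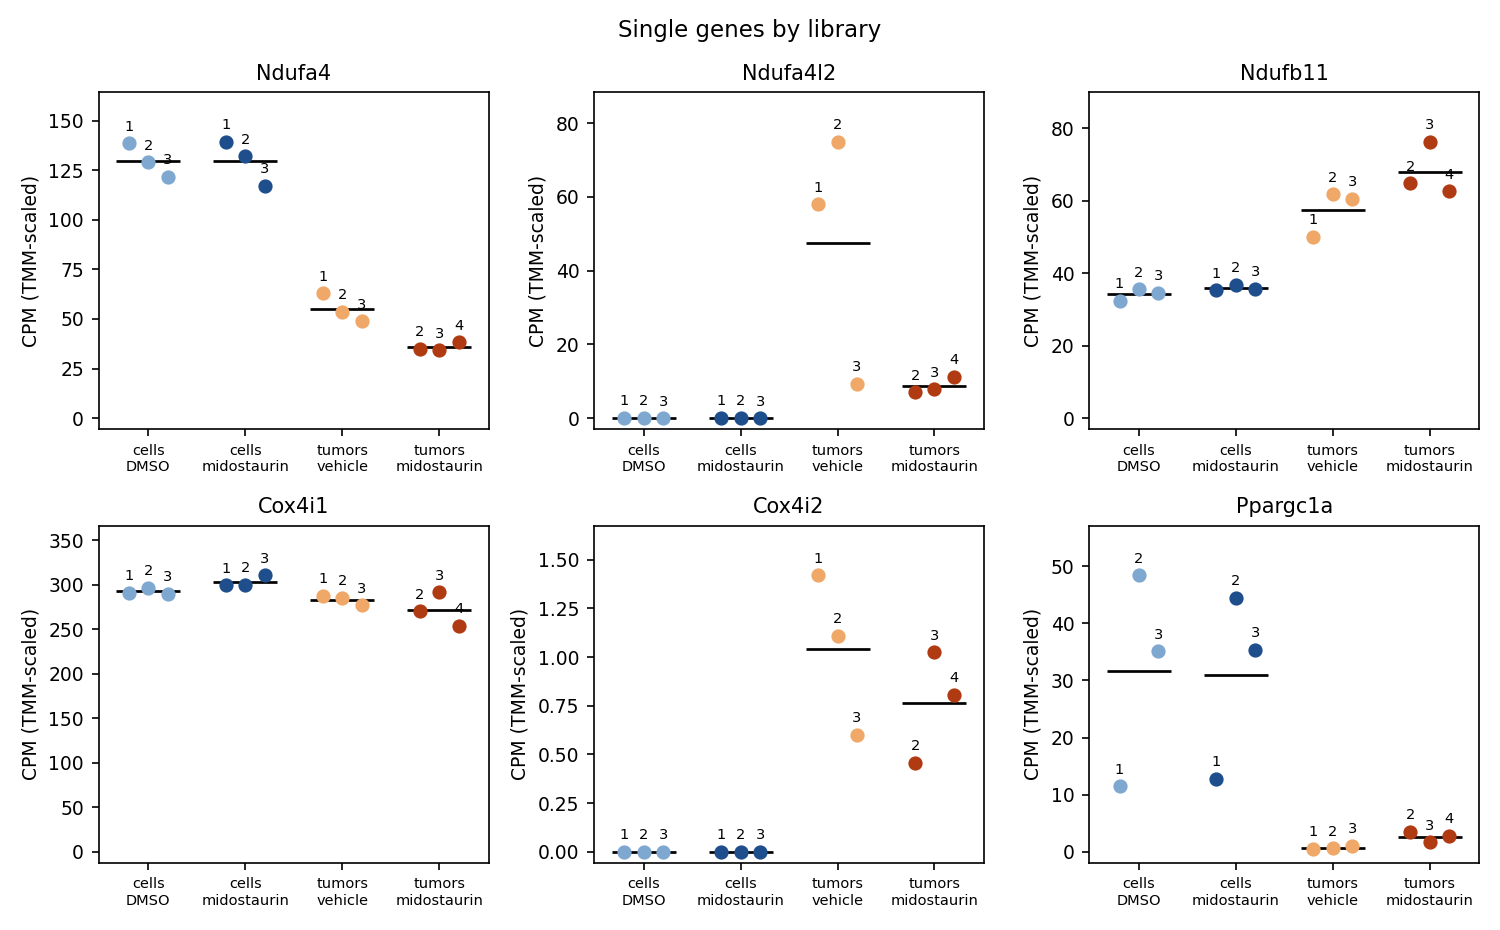
CPM by library for Ndufa4, Ndufa4l2, Ndufb11, Cox4i1, Cox4i2 and Ppargc1a in the 4 groups; each point is 1 library. Ndufa4 is at 117.1 to 139.3 CPM in cells and 34.3 to 63.0 CPM in tumors, while Ndufa4l2 is under 0.2 CPM in cells and 7.02 to 74.9 CPM in tumors.

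The plot of single genes puts the 2 paralogs side by side: Ndufa4 fell and Ndufa4l2 rose in vehicle tumors against culture, and both had fitted values below 0 in midostaurin against vehicle tumors. Cox4i1 stayed between 254.3 and 310.8 CPM in all 12 libraries.

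Of the neighbouring pathways, glycolysis had 11 of 16 genes called higher and 0 lower in vehicle tumors against culture, where 24.5% of all genes were called higher and 19.7% lower, with a median log2 fold change of 1.02. The lactate exporter Slc16a3 rose from 31.2, 20.1 and 20.6 CPM to 94.5, 94.3 and 64.4 CPM (1.82, edgeR adjusted p = 0.000342). All 16 were above 0 in midostaurin against vehicle tumors (median 0.38), with 0 called by edgeR and a smallest adjusted p of 0.233. The citric acid cycle was split, with 5 of 18 higher, among them Idh2 (1.06), and 5 lower, among them Pcx, the pyruvate carboxylase that refills the cycle (-1.73, edgeR adjusted p = 2.67e-05). Of 11 carriers and porins 2 rose and 1 fell, and of 13 genes of mitophagy and mitochondrial stress 1 rose: Bnip3, a hypoxia-induced mitophagy receptor (2.18, edgeR adjusted p = 0.00102), at 47.3, 48.0 and 42.8 CPM in DMSO cells and 201.7, 331.1 and 91.7 CPM in vehicle tumors. Within the cells, and within the tumors, edgeR called 0 genes of each of these lists.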

How the data were processed

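RNA-seq of 12 libraries was analysed, 6 of CT26 cells and 6 of tumors, as 2 deposited tables of whole-number counts per Ensembl gene. Per the submitters' processing notes, the authors used FastQC 0.11.2, Bowtie2 2.3.4 and RSEM with build mm10. The annotation and the strand setting are not given in the sources used here, and rounded RSEM estimates cannot be told apart from whole counts. Symbols came from GENCODE M21 and matched 99.7% of identifiers.

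From these deposited counts, midostaurin was tested within cells and within tumors, and the interaction and vehicle tumors against DMSO cells in 1 fit of all 12 libraries, with edgeR 4.0.16 (filterByExpr, TMM scaling, glmQLFit and glmQLFTest, R 4.3.3). Benjamini-Hochberg adjustment ran over all genes tested, with a threshold of 0.05. CPM values use TMM factors over all 12 libraries, and values per kilobase divide them by annotated exon length. Errors are SE for fold changes and SD for means. DESeq2 1.42.0, limma-voom (limma 3.58.1), other scalings, no filter, summed nuclear copies, a replicate block and leaving out each library were the alternatives. Copies were found with BLAST 2.17.0. The tests were tested on simulated data.

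The members, lists and tests were chosen with earlier results of these data known. Genes named are the mitochondrial members, per complex the 3 smallest p-values in each tumor comparison among genes of at least 5 CPM, the restricted Cox isoforms with their partners, 2 genes per list and comparison, and 7 fixed regulators. The other called members and list genes were named after their values were seen. Numbers in the labels were used to pair the cell libraries: same-numbered deviations correlated at 0.815, 0.561 and 0.564 across genes, a pairing that comes from the data. Libraries 2 and 3 also correlated across numbers, at 0.439 (DMSO 2 with midostaurin 3) and 0.414 (DMSO 3 with midostaurin 2). Only the pair numbered 1 was thus clearly set apart. In tumors the 2 shared numbers gave 0.104 and -0.18, so those are not paired.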

Additional observations from a re-analysis of the deposited data

How the results depend on the processing

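Over all alternatives, 295 summary values stayed within 1.5 times the count or within the replicate spread, and 12 moved. Of all these, 9 had the opposite sign, 8 of them medians or ratios of the cells near 0. For named genes, 2999 kept direction and side of the threshold, 48 newly passed it, 38 no longer did and 21, in 14 comparisons of a gene, changed sign. In midostaurin against vehicle tumors DESeq2 called 1 mitochondrial and 8 nuclear members where edgeR called 0 of either. In the interaction DESeq2 called 0 mitochondrial and 1 nuclear member. For tumors against culture, 11 nuclear members were called with only the 2 groups fitted, a fit with fewer samples and its own spread. On leaving out 1 library 10 to 20 were called. The mitochondrial members called there were 8 to 11 on leaving out 1 library. With the treated groups in place of the untreated, chosen after seeing the data, the median was -2.25 for mitochondrial and -0.08 for nuclear members, and Atp5o had -0.10, Sdha 0.05, Uqcr10 -0.29 and Uqcrq -0.41, each opposite in sign to the untreated groups. Leaving out 1 library also turned the sign in tumors for Cdh1 (-2.43 to 0.52), Fabp4 (-1.0 to 0.16), Myc (-0.05 to 0.32), Myh4 (-9.0 to 0.77), Cox4i1 (-0.09 to 0.00) and Cox7a1 (-0.41 to 0.00), and in tumors against culture for Myc (-0.03 to 1.03), Polrmt (-0.10 to 0.01), Tfam (-0.35 to 0.00) and Uqcr10 (-0.01 to 0.38); apart from Atp5o, none of these had passed the test. Averaging log2 values in place of summing counts gave a mitochondrial to nuclear log2 ratio of -1.63 between tumors and culture, since low mRNAs then weigh as much as mt-Co1. For the other changes the cause was not tested.

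With the replicate block the cells had 0 mitochondrial and 0 nuclear members called, as without it. In tumors, whose numbers do not pair, the block left the 2 shared pairs, called 0 members and moved the mitochondrial median to -1.65, with the sign turned for Cox6b1 (0.01), Myc (-0.05) and Myh4 (1.42). Over both experiments it called 3 mitochondrial members lower in the interaction (mt-Co1, mt-Cytb and mt-Atp6) and 1 nuclear member (Ndufa4), where 0.348% of all genes were called lower; a block in the cells alone, added after seeing the data, called 0 and 0. Tumors and culture share no pairs, so that comparison had no block. Counting error limits the lowest members: Cox4i2 rests on 26 to 56 counts per vehicle tumor, and Cox6b2 and Cox8b on at most 8 and 4 counts in any library.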
